A study of Rattus norvegicus with 20 samples.

Results

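Translation factors are the proteins that bring messenger RNA (mRNA), initiator tRNA and ribosome together and then move the ribosome along the message. Their genes were followed here in the choroid plexus, the secretory tissue of the brain ventricles that makes cerebrospinal fluid. All gene identifiers were taken whose symbol in the study's 2 gene tables, 1 per cohort, begins with Eif (eukaryotic initiation factor) or Eef (eukaryotic elongation factor). This gave 30 genes out of 32883 in the expression files, of which 2616 carry a symbol in the copies of the tables used here. These copies are shortened, so less abundant factors may be missing from them. They also hold some genes at a low level, such as Slc4a1 at a mean of 0.183 TPM in lean rats. Level alone thus did not decide which genes could be found. Of the 30 genes, 25 stand in both tables, Eif6, Eif4a3, Eif2s1 and Eif3b only in the table of untreated rats, and Eif4g3 only in that of injected rats.

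RNA was sequenced from the choroid plexus (lateral and 4th ventricle) of 20 female Zucker rats aged 16 weeks. The lean group (n = 6, rats 1 to 6) was heterozygous +/fa and the obese group (n = 6, rats 7 to 12) homozygous fa/fa, and neither was injected. Lean + VEH rats (n = 4, rats 13 to 16) were +/fa and received sesame oil under the skin, and obese + TT rats (n = 4, rats 17 to 20) were fa/fa and received testosterone propionate in sesame oil, as repeated injections over the last weeks. The fa allele disables the leptin receptor, and every lean rat carried 1 copy of it. No lean rat received testosterone and no obese rat received oil alone. Obesity and testosterone therefore cannot be told apart between the injected groups, and injection and cohort cannot be told apart between lean + VEH and lean, nor testosterone, injection and cohort between obese + TT and obese. Expression is in TPM, the abundance of a transcript per unit of its length, scaled to the same total in every library, so that levels can be set side by side between genes. The read depth of the libraries is unknown from these files. All 14 epithelial markers of the choroid plexus that were looked for were measured, led by Ttr (transthyretin), which took 34.0% ± 2.74 (SD, n = 6) of the TPM in lean rats.

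In eukaryotes, the small ribosomal subunit is loaded with initiator tRNA by eIF2, joined by eIF1, eIF5 and the large eIF3 complex, and recruited to the mRNA cap by eIF4E, the scaffold eIF4G and the helicase eIF4A. Elongation follows with eEF1A, which delivers aminoacyl-tRNA, and eEF2, which moves the ribosome by a codon. The mRNAs of ribosomal proteins and of several of these factors begin with a run of pyrimidines, the terminal oligopyrimidine tract, known as a handle for control of their translation by the kinase mTORC1.

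The starts of the genes were read from RefSeq (build GRCr8) in a window of 30 bases, 10 before and 20 after the annotated start, on the strand of the gene. Of the 30 factors, 27 were matched by symbol. Of these, 6 (22.2%) had a run of at least 8 consecutive C or T in any order, against 10.5% of all 24206 annotated starts and 60% of the 55 starts of ribosomal protein genes. The 6 are shown first, followed by 3 factors without such a run whose mRNA level differed between the cohorts. Capitals mark the longest run of C and T in each window.
Eef1b2, chr9:72074081-72074110, plus strand: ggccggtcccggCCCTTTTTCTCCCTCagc
Eif2s3, chrX:62933680-62933709, minus strand: cagccgagcaTTTTCCTTTTCTCTCTgagc
Eif3f, chr1:172369052-172369081, plus strand: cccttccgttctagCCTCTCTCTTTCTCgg
Eif3m, chr3:111897174-111897203, minus strand: caccgtgtggtaccgCTCCTTTTCCggtcg
Eef1a1, chr8:88225050-88225079, minus strand: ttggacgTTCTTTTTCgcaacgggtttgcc
Eif4h, chr12:27719682-27719711, plus strand: ggTCCTTCCTCgctggcccgctggttcctc
Eif5a, chr10:55143202-55143231, minus strand: Tagaggcggcggcggcggcggcagcagcac
Eif4a1, chr10:54888583-54888612, minus strand: gcaCTCCgccctagattctaaggatcatgt
Eif4g1, chr11:93746348-93746377, minus strand: gcgcagctccgCCCTCTgcgccggtcacgt
The longest run, 16 bases, was in Eif2s3, the gamma subunit of eIF2, followed by 15 bases in Eef1b2, the exchange factor that recharges eEF1A. The Eif5a window held no more than 1 pyrimidine in a row. A run is a description of these windows, and the absence of one says only that these letters are not within them.

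Eef1a1, which delivers aminoacyl-tRNA to the ribosome, was by far the most abundant of the 30 factors. It had 2608 ± 135 TPM in lean rats (SD, n = 6; lowest, median and highest 2372, 2668 and 2729 TPM) and 2476, 2767 and 2986 TPM in obese rats. In lean rats all 30 genes summed to 5978 ± 309 TPM and the 29 others to 3370 ± 187 TPM. Next in lean rats came Eif4a2, a cap-complex helicase, at 401 ± 33.0 TPM. Eif5a (282 ± 14.8), Eef2 (267 ± 17.0) and Eif1 (265 ± 35.8 TPM) followed, and these neighbours overlapped between rats. The lowest level in lean rats was that of Eif4g3, a scaffold, at 35.4 ± 3.81 TPM. Rats of a group resembled each other: the median coefficient of variation of the 30 genes was 8.37% in lean, 8.42% in obese, 5.86% in lean + VEH and 5.30% in obese + TT rats. For the 2940 genes at a mean of 30 TPM or more, the corresponding medians were 8.78%, 9.53%, 7.63% and 6.47%. The most variable factor was Eif6, with 22.9% in the obese group.

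**Figure D1:**
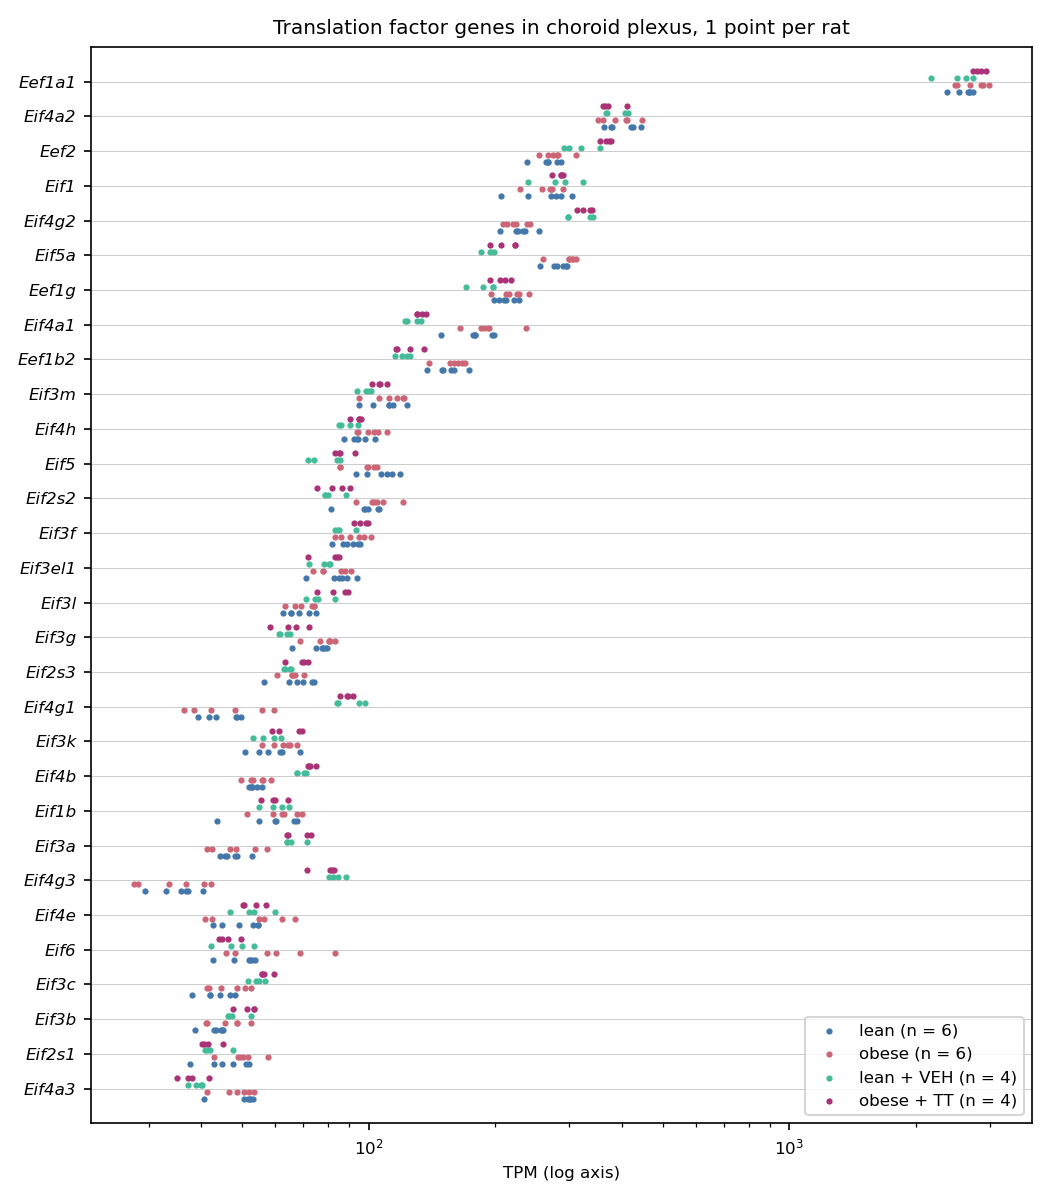
TPM (log axis) of the 30 translation factor genes, ordered by mean level, with 1 point per rat and 4 colours for the groups. Eef1a1 stands apart at 2175 to 2986 TPM. Of the genes in both tables, Eif4g1, Eif4g2, Eif4b, Eif3a, Eif5a, Eif4a1 and Eef1b2 separate the uninjected from the injected rats. Eif4g3 does so too, which is a description, as it was found only in the table of injected rats.

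Whether obesity alone goes with other levels of these factors was asked by comparing obese with lean rats. None of the 30 genes was called at an adjusted p under 0.05 (limma on TPM, Benjamini-Hochberg over 15176 genes), and neither was any other gene (0.0% called). The study, which tested read counts with another program, DESeq2, reported differentially expressed genes in this contrast and in that of the injected groups. At an unadjusted p under 0.05 there was also no factor, while 9.66% of all genes passed. The log2 difference was above 0 for 23 of the 30 genes, with a median of 0.04, against 55.7% of all genes and a median of 0.02. The factors ranged from -0.15 for Eif5 to 0.24 for Eif6. The groups overlapped in every factor, whereas they did not in 0.54% of all genes.

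Eif5, the activator of GTP hydrolysis by eIF2 at the start codon, had the smallest p. Its lowest, median and highest levels were 93.2, 109 and 119 TPM in lean and 85.4, 99.4 and 104.4 TPM in obese rats. The groups overlapped, and the log2 difference of -0.15 ± 0.07 (SE) had an adjusted p of 0.546 (limma) and an exact permutation p of 0.0736 (two-sided). Eif6, which keeps the large ribosomal subunit from joining early, had 42.8, 52.2 and 53.6 TPM in lean and 45.7, 58.7 and 83.0 TPM in obese rats. Rat 7, the highest, stood above every lean rat, and so did 3 other obese rats, whereas rats 8 and 10 lay within the lean range. The log2 difference was 0.24 ± 0.12 (SE) with an adjusted p of 0.586 (limma) and an exact p of 0.123. Eif4h, a partner that stimulates the eIF4A helicase, had 87.5, 94.3 and 103 TPM in lean and 93.9, 101 and 111 TPM in obese rats, which overlapped (log2 difference 0.09 ± 0.06, adjusted p = 0.663, limma). Over the roles, all 5 elongation factors were above 0, between 0.04 and 0.07, and so were 8 of the 9 eIF3 genes, with a median of 0.04. The eIF3 gene below 0 was Eif3el1, an Eif3e-like gene.

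The injected groups, obese + TT against lean + VEH, gave a similar count. No factor of 30 and no gene of 15259 was called (0.0% called, limma). Leaving out lean + VEH rat 13 called 25 genes overall and no factor. At an unadjusted p under 0.05, 2 factors passed, both higher in obese + TT rats, against 7.43% of all genes. The log2 difference was above 0 for 23 of 30 factors (median 0.06) and for 52.6% of all genes (median 0.01). All 5 elongation factors, from 0.02 to 0.22, and all 9 eIF3 genes, from 0.04 to 0.16, were above 0, while 5 of the 8 cap and helicase factors were. The eIF3 genes include the Eif3e-like Eif3el1. When each library was shifted to a common median, the factors above 0 numbered 21.

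Eef2 had the smallest p. The obese + TT rats had 367, 374, 377 and 354 TPM, and the lean + VEH rats had 319, 291, 300 and 355 TPM. Lean + VEH rat 16 overlapped the lowest obese + TT rat. Mean levels were 368 ± 10.3 and 316.5 ± 28.1 TPM (SD, n = 4 each), a log2 difference of 0.22 ± 0.07 (SE) with an unadjusted p of 0.0084 and an adjusted p of 0.559 (limma). The exact permutation p was 0.0571, where 0.0286 is the smallest that 4 against 4 rats allow. Eif3f is a subunit of eIF3 whose start carries the 14-base run shown above. It had 99.6, 98.5, 95.4 and 92.5 TPM in obese + TT rats and 84.5, 84.9, 83.4 and 93.5 TPM in lean + VEH rats. Again rat 16 alone overlapped, and the log2 difference was 0.16 ± 0.05 (SE, adjusted p = 0.594, limma). In Eif3m, Eef1a1 and Eif4b the groups did not overlap, 3 of 30 factors against 4.02% of all genes. Eif3m had 111, 102, 106 and 106 TPM in obese + TT rats and 100.1, 93.6, 101 and 98.4 TPM in lean + VEH rats (adjusted p = 0.671, limma; exact p = 0.0286). The levels of Eef1a1 were 2732, 2848, 2927 and 2800 TPM in obese + TT rats and 2635, 2175, 2500 and 2725 TPM in lean + VEH rats. The closest rats thus lay within 10 TPM of each other, and lean + VEH rat 14 was the lowest (log2 difference 0.18 ± 0.09, adjusted p = 0.695, limma). For Eif4b, which assists the helicase, the means were 72.8 ± 1.46 and 69.1 ± 1.73 TPM (adjusted p = 0.762, limma).

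**Figure D2:**
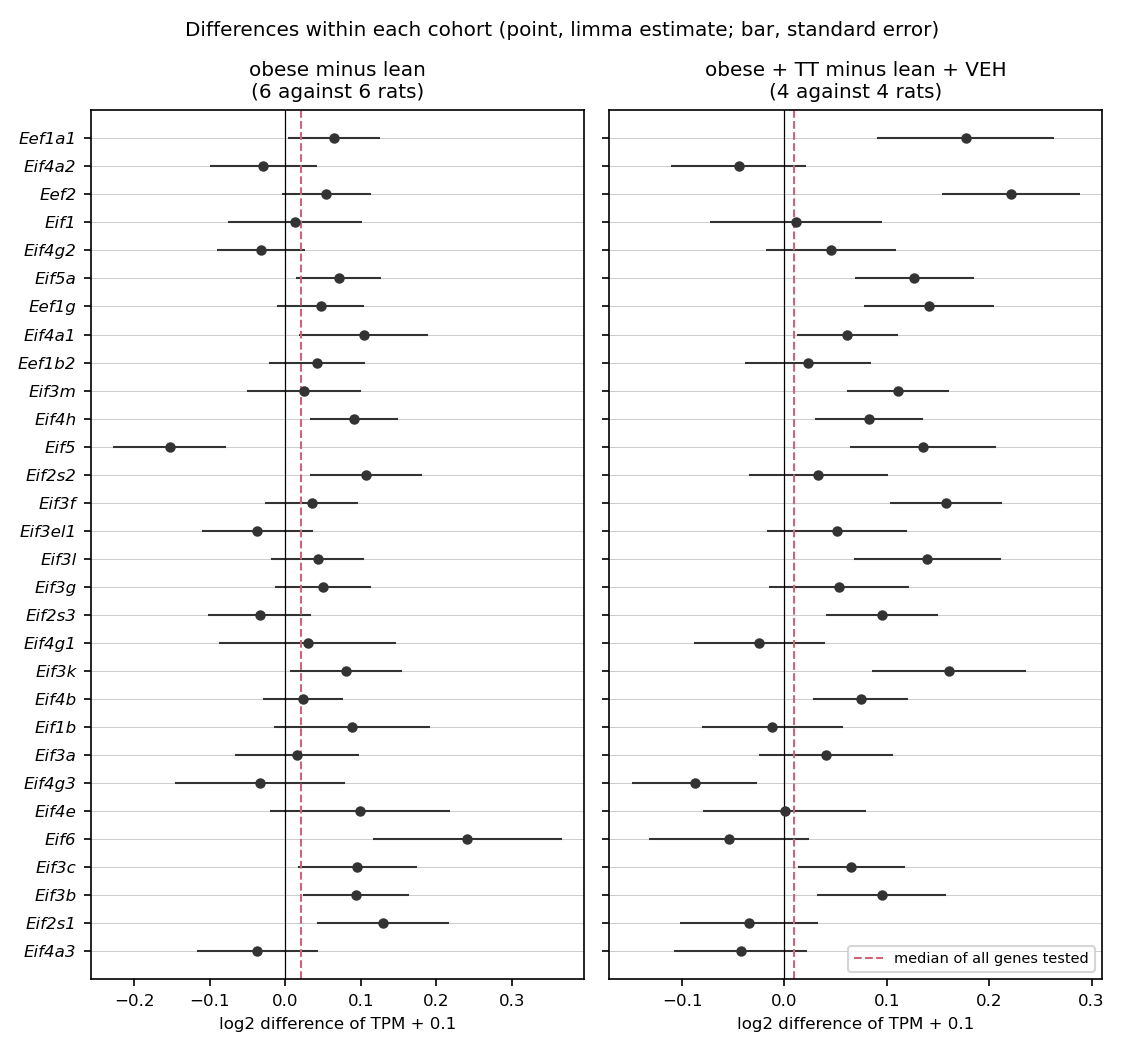
Log2 difference of TPM + 0.1 for each of the 30 genes, obese minus lean (left, 6 against 6 rats) and obese + TT minus lean + VEH (right, 4 against 4 rats), with standard errors and the median of all genes tested as a dashed line. No gene was called in either comparison, and 23 of the 30 points lie above 0 in each.

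Whether the 2 obesity contrasts differ from each other was tested directly in a fit of all 20 libraries. No factor and no gene of 15406 was called (0.0%, limma), and 1 factor passed the unadjusted threshold against 8.36% of all genes. That factor was Eif5, which lay at -0.15 in the uninjected and at 0.14 in the injected contrast, a difference of 0.29 ± 0.11 (SE, adjusted p = 0.492, limma).

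Markers of other cells were read beside these contrasts. The 5 red blood cell genes with a symbol (of 8 listed, led by Hba-a1, alpha globin) summed to 4602 ± 960 TPM in lean, 5988 ± 1217 in obese, 3821 ± 1703 in lean + VEH and 7023 ± 1667 TPM in obese + TT rats. All 5 lay above 0 in both contrasts, with medians of 0.41 and 1.12, and none was called (limma), although all 5 had an unadjusted p under 0.05 between obese and lean rats and 4 between the injected groups. Between the injected groups, the 3 mural and the 3 immune markers with a symbol all lay below 0 in obese + TT rats (medians -0.74 and -0.65), and 2 of each had an unadjusted p under 0.05 but none was called. Between obese and lean rats, in contrast, all 3 immune markers (median 0.14) and 2 of the 3 mural markers (median 0.19) lay above 0. There 1 immune marker and no mural marker had an unadjusted p under 0.05, and none was called. Plvap, an endothelial marker, lay at 0.13 between obese and lean rats and at 0.10 between the injected groups. The 3 stromal markers had medians of 0.17 and -0.07 in the same order. Gja1, an astrocyte marker, lay at -0.07 and at 0.76 (adjusted p = 0.519 for the latter, limma). The part of these cells in the values of the factors was not tested. In bulk tissue, fewer cells of a type and less RNA per cell cannot be told apart.

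The injected and the uninjected rats differed far more from each other than obese from lean rats did. Between lean + VEH and lean rats, 15 of the 30 factors were called, 7 higher and 8 lower, against 58.2% of 15326 genes (41.7% higher, 16.5% lower). Between obese + TT and obese rats, 16 were called, 8 higher and 8 lower, against 58.1% of 15389 genes (41.7% higher, 16.4% lower). The 2 comparisons share no rat. A share of 15 or 16 in 30 is thus near the background. The 5 genes listed in 1 table only entered through the cohort of that table, so a difference between cohorts could decide whether they were found. Among the 25 genes in both tables, 13 were called in the lean comparison (6 higher, 7 lower) and 12 in the obese comparison (7 higher, 5 lower). The median log2 difference of all genes was 0.24 and 0.25 in the 2 comparisons, and that of the factors -0.06 and -0.01. After each library was shifted to a common median, 31.8% of all genes were higher and 27.5% lower in the lean comparison, and 30.4% and 27.0% in the obese comparison. With this shift 6 factors were higher and 18 lower in each, and 5 higher and 15 lower in each when only the 25 genes in both tables are counted. Groups did not overlap in 15 factors (8 higher, 7 lower) in the lean comparison, where 44.8% of all genes did not, and in 12 (8 higher, 4 lower) in the obese comparison, where 45.8% did not. Of the genes listed in 1 table only, the lean count includes Eif4g3 and Eif3b (higher) and Eif4a3 (lower). The obese count includes Eif4g3 (higher), so for these genes the counts are a description.

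Because of this general shift, directions are given for the factors called under all 5 scalings (TPM, FPKM, TPM without Ttr and the mitochondrial genome, the median shift and quantile normalization). Of the genes in both tables, Eif4g1, Eif4g2, Eif4b and Eif3a were higher in both comparisons, the first 3 of them in the cap and helicase group. Eif5a and Eef1b2 of elongation, the helicase Eif4a1, Eif2s2 (the beta subunit of eIF2) and Eif3g were lower in both. In the lean comparison Eef1g and Eif5 were also lower under all 5. Of the genes in 1 table only, no test between cohorts is given for their differences, since the table could choose them. These lay at 1.25 and 1.20 for Eif4g3 (in the table of injected rats) and, for those in the table of uninjected rats, at -0.35 and -0.36 for Eif4a3, -0.09 and -0.26 for Eif2s1, -0.06 and -0.36 for Eif6 and 0.16 and 0.16 for Eif3b. The direction depended on the scaling for Eef2, Eif1, Eif1b, Eif3b, Eif3l and Eif4e in the lean comparison and for Eef1a1, Eif1, Eif2s3, Eif3b, Eif3f, Eif3k and Eif3l in the obese comparison. The call of Eef1g in the lean comparison was lost without rat 1, 5, 13 or 14. Eif6 had 42.2, 49.9, 47.0 and 53.4 TPM in lean + VEH and 46.3, 44.8, 49.7 and 44.2 TPM in obese + TT rats, all within or close to the range of the lean group.

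**Figure D3:**
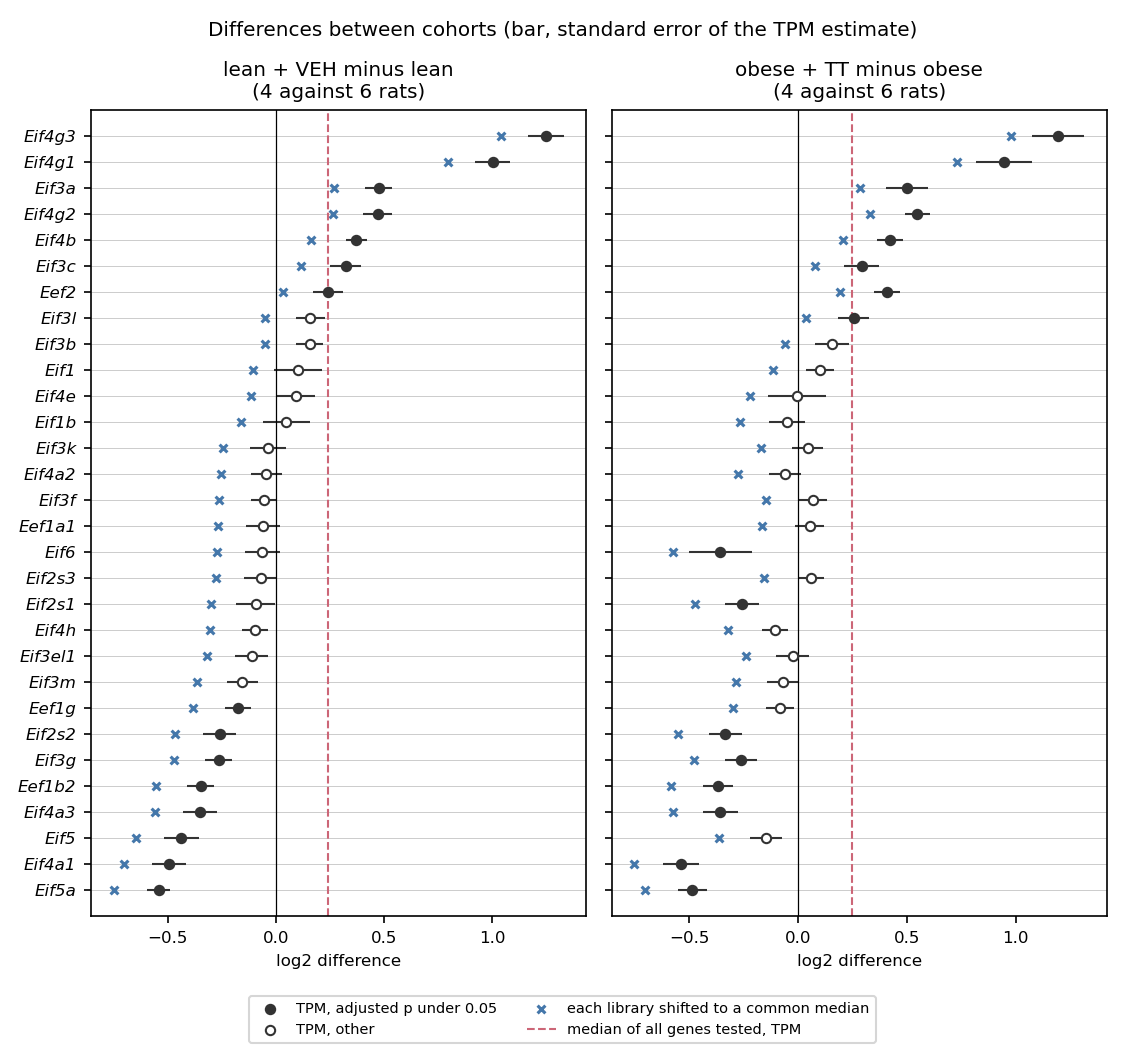
Log2 difference of each factor between injected and uninjected rats, lean + VEH minus lean (left) and obese + TT minus obese (right), with standard errors; filled points had an adjusted p under 0.05 (not to be read as calls for Eif4g3, Eif4a3, Eif2s1, Eif6 and Eif3b, each listed in 1 table only), crosses are the estimates after a shift to a common median, and the dashed line is the median of all genes (0.24 and 0.25). Eif4g3 and Eif4g1 lie above all other factors and Eif5a and Eif4a1 lowest in both panels and on both scales.

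Of the eIF4G scaffolds, which hold the cap complex together, Eif4g3 and Eif4g1 had the highest log2 differences of the 30 factors in both comparisons. Eif4g3 was found only in the table of injected rats, so its values are a description. Eif4g3 had 29.3, 36.3 and 40.4 TPM (lowest, median, highest) in lean and 27.7, 35.2 and 42.2 TPM in obese rats. In lean + VEH rats it had 82.2, 84.8, 80.7 and 88.3 TPM, and in obese + TT rats 80.7, 71.4, 82.6 and 81.7 TPM. The injected rats lay above every uninjected rat, 2.37-fold and 2.27-fold in the means, with log2 differences of 1.25 ± 0.08 and 1.20 ± 0.12 (SE). Eif4g1 had 39.3, 45.9 and 49.8 TPM in lean and 36.5, 45.1 and 59.4 TPM in obese rats. It reached 95.1, 84.2, 84.5 and 98.2 TPM in lean + VEH and 89.1, 85.3, 91.9 and 88.9 TPM in obese + TT rats. These ranges did not overlap either, and the log2 differences were 1.00 ± 0.08 and 0.95 ± 0.13 (SE, adjusted p = 8.68e-07 and 6.2e-05, limma). Eif4g2, the relative known for translation without eIF4E, had 206, 230 and 254 TPM in lean and 209, 222 and 241 TPM in obese rats. Its levels were 298, 298, 335 and 342 TPM in lean + VEH and 312, 324, 340 and 335 TPM in obese + TT rats, again with no overlap (log2 0.47 ± 0.07 and 0.55 ± 0.06, adjusted p = 8.32e-05 and 1.11e-05, limma). With FPKM these differences were 0.21 and 0.27, and those of Eif4g1 0.74 and 0.67, all still called.

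Eif3a, the largest subunit of eIF3, had 44.4, 47.1 and 52.8 TPM in lean and 41.2, 47.7 and 57.3 TPM in obese rats. It stood at 63.9, 64.0, 71.4 and 65.5 TPM in lean + VEH and at 63.9, 71.4, 64.3 and 73.1 TPM in obese + TT rats. All injected rats were above all uninjected rats (log2 0.48 ± 0.06 and 0.50 ± 0.10, adjusted p = 3.86e-05 and 0.000745, limma), and the differences were 0.22 and 0.23 with FPKM and 0.27 and 0.29 after the median shift. The other eIF3 subunits did not follow it as a block. Eif3c rose under TPM in both comparisons (0.32 and 0.29), but in the obese comparison it was called under TPM only. Eif3g, in contrast, fell by 0.27 and 0.26 on the log2 scale (adjusted p = 0.00299 and 0.00892, limma), and by 0.52 and 0.54 with FPKM. Eif3m, the most abundant eIF3 subunit, had 95.0, 112 and 124 TPM in lean and 94.9, 114 and 121 TPM in obese rats, with log2 differences of -0.16 and -0.07 and no call under TPM. It was called lower under the other 4 scalings in both comparisons, with -0.36 and -0.29 after the median shift (adjusted p = 0.000377 and 0.00291, limma).

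On the lower side, Eif5a, which relieves stalled ribosomes, had 256, 285 and 296 TPM in lean and 260, 301 and 311 TPM in obese rats. The lean + VEH rats had 194, 185, 196 and 198 TPM and the obese + TT rats 206, 223, 223 and 194 TPM, below every uninjected rat. It fell by 0.54 and 0.49 on the log2 scale (SE 0.05 and 0.07, adjusted p = 4.35e-06 and 5.84e-05, limma). Eif4a1 had 149, 179 and 199 TPM in lean and 165, 190 and 236 TPM in obese rats. Its levels were 130, 122, 133 and 123 TPM in lean + VEH and 137, 130, 134 and 130 TPM in obese + TT rats, without overlap. It fell by 0.49 and 0.54 (SE 0.08 each, adjusted p = 0.000151 in both, limma). With FPKM, Eif5a fell by 0.80 and 0.76 and Eif4a1 by 0.75 and 0.81. Eef1b2, whose start carries a 15-base run, fell from 154 ± 11.7 to 121 ± 4.27 TPM and from 159 ± 10.9 to 123 ± 9.07 TPM (SD). On the log2 scale it fell by 0.35 and 0.37, and by 0.61 and 0.64 with FPKM. Among the other factors with a run of at least 8 C or T, Eef1a1, Eif2s3, Eif3f, Eif3m and Eif4h were not called under TPM in either comparison. Under the other 4 scalings all of them but Eif3f, which was called under 3, were called lower in the lean comparison, and Eif3m and Eif4h also in the obese comparison. There the direction of Eef1a1, Eif2s3 and Eif3f depended on the scaling. Under TPM the 6 factors with a run had a median log2 difference of -0.08 in the lean comparison. The other factors with a matched start had -0.04. In the obese comparison these medians were -0.01 and -0.05. Some of the other factors are listed in 1 table only, so the medians are a description.

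Ratios within a rat are unchanged by a scaling that multiplies all genes of a library by the same factor, which quantile normalization does not, and were formed for the close relatives (20 exact tests, Benjamini-Hochberg over them). Eif4a1 and Eif4a2 encode closely related helicases. Eif4a2 itself had 362, 400 and 444 TPM in lean rats, 350, 397 and 446 TPM in obese rats, 368, 367, 407 and 413 TPM in lean + VEH rats and 361, 365, 411 and 371 TPM in obese + TT rats, all overlapping. It was not called under TPM or after quantile normalization, but was called lower in both comparisons under the other 3 scalings (-0.25 and -0.28 after the median shift, adjusted p = 0.00216 and 0.00393, limma). Eif4a1 over Eif4a2 was 0.449 ± 0.037 in lean, 0.497 ± 0.091 in obese, 0.328 ± 0.023 in lean + VEH and 0.353 ± 0.022 in obese + TT rats (SD). Injected and uninjected rats did not overlap (exact p = 0.00952, the smallest that 4 against 6 rats allow, adjusted p = 0.0272). Eif4g1 over Eif4g2 went from 0.197 to 0.285 in the lean and from 0.207 to 0.271 in the obese comparison. Both differences were without overlap and had the same exact p of 0.00952 (adjusted p = 0.0272). Eif4g3 over Eif4g2 went from 0.155 to 0.265 and from 0.155 to 0.241, given as a description because of how Eif4g3 was found.

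The other relatives were less separate. Eif4a3, the helicase of the exon junction complex, had 40.5, 51.9 and 53.1 TPM in lean, 41.2, 49.6 and 53.4 TPM in obese, 39.9, 40.25, 37.2 and 38.9 TPM in lean + VEH and 38.0, 37.1, 41.7 and 35.1 TPM in obese + TT rats. The lean comparison was without overlap and the obese one was not. Over Eif4a2 it was 0.125 in lean and obese rats alike and 0.101 in lean + VEH and in obese + TT rats, again a description, as Eif4a3 was found in the table of uninjected rats only. Eif1, the scanning factor that guards start codon choice, had 206, 275 and 304 TPM in lean, 230, 270 and 290 TPM in obese, 239, 278, 323 and 292 TPM in lean + VEH and 273, 289, 286 and 287 TPM in obese + TT rats. All groups overlapped. Its relative Eif1b had 43.7, 59.96 and 67.5 TPM in lean, 51.3, 62.6 and 69.4 TPM in obese, 54.8, 59.3, 64.7 and 62.3 TPM in lean + VEH and 59.99, 64.2, 55.5 and 59.3 TPM in obese + TT rats. These levels overlapped too, and Eif1b ran at 0.222 of Eif1 in lean, 0.234 in obese, 0.214 in lean + VEH and 0.211 in obese + TT rats (adjusted p = 0.349 and 0.0635 between cohorts, exact tests). Between obese and lean rats of the same cohort, no ratio reached an adjusted p under 0.05. The smallest exact p there was 0.108, for Eif1b over Eif1 (adjusted p = 0.216).

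**Figure D4:**
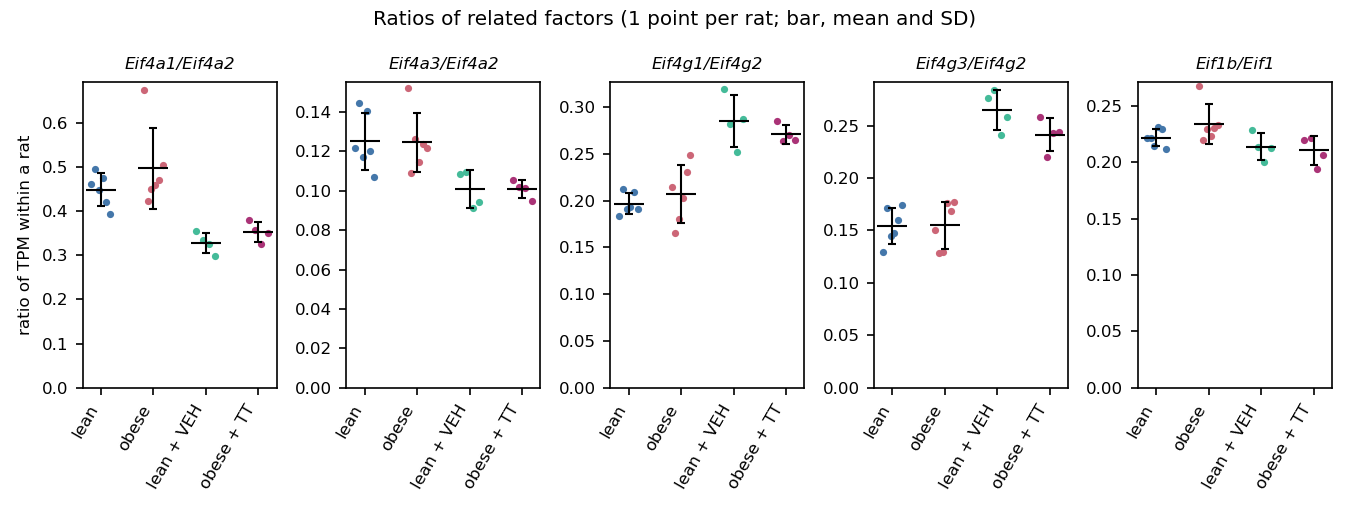
Ratios of TPM within a rat for 5 pairs of related factors, with 1 point per rat and the mean and SD of each group. Eif4a1/Eif4a2 is lower, and Eif4g1/Eif4g2 and Eif4g3/Eif4g2 are higher, in all injected than in all uninjected rats of the same phenotype. For Eif4g3/Eif4g2 this is a description, as Eif4g3 was found only in the table of injected rats.

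Measures of the libraries and of other cell types moved with the cohort as well. The Ttr share was 34.0% and 34.7% in lean and obese rats and 28.9% and 27.3% in lean + VEH and obese + TT rats. The summed FPKM correspond to a mean transcript length, weighted by TPM, of 864 and 862 bases in lean and obese rats and of 1035 and 1044 bases in the injected groups, if FPKM was taken over all counted fragments. Of 5 mural cell markers 3 carry a symbol, led by Rgs5, and summed to 163 ± 15.8 and 182 ± 38.8 TPM in lean and obese rats and to 16.7 ± 3.80 and 10.6 ± 0.869 TPM in lean + VEH and obese + TT rats. Plvap, the only one of 7 endothelial markers with a symbol, stood at 45.6 and 50.0 TPM and at 5.25 and 4.66 TPM in the same order. The 3 immune markers (of 10, led by Lyz2) summed to 540, 585, 224 and 164 TPM. Of the stromal markers (3 of 6), Dcn, the most abundant, had 92.5, 88.6, 10.9 and 9.68 TPM, whereas Pdgfra rose, and the sum was 123, 125, 76.5 and 70.7 TPM. Gja1, the 1 astrocyte marker of 6, had 6.39, 6.20, 1.91 and 3.19 TPM. None of the listed neuron or oligodendrocyte markers carried a symbol. Of the 14 epithelial markers, 11 were called higher in the lean comparison, and 9 higher and 1 lower in the obese comparison, beside 41.7% of all genes higher in each. After the median shift, 10 markers were higher and 1 lower in the lean comparison, and 9 higher and 2 lower in the obese comparison. With this shift 31.8% and 30.4% of all genes were higher. The part of these cells and library measures in the differences of the factors was not tested. Which gene table listed each marker is not given here. Some markers may have been found only through the cohort where they are higher, so their differences between cohorts are a description.

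The length of the gene itself varied with the difference between cohorts. Across the 25 factors in both tables, a choice made after seeing the data, the log2 difference correlated with the log10 of the genomic span in RefSeq with Pearson's r of 0.46 and Spearman's rho of 0.47 in the lean comparison and 0.46 and 0.44 in the obese comparison. All points come from the same libraries, and genes are not independent replicates. For all 2401 and 2403 genes with a symbol and a span, r was 0.35 and 0.40 and rho 0.45 and 0.49, so the factors stood near the background. With the 5 genes listed in 1 table included, r was 0.61 and 0.59 and rho 0.50 and 0.48. Of these, Eif4g3 spans 221 kb, and r over the other 29 factors was 0.44 and 0.41. In the obesity contrasts r was 0.10 and 0.06 across the 25 factors, and -0.13 and 0.05 for all 2399 and 2402 genes. Eif3el1, annotated as an Eif3e-like gene of 1.38 kb, may share reads with Eif3e, and Eef1a1 has many near copies in mammalian genomes, so both levels are uncertain.

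**Figure D5:**
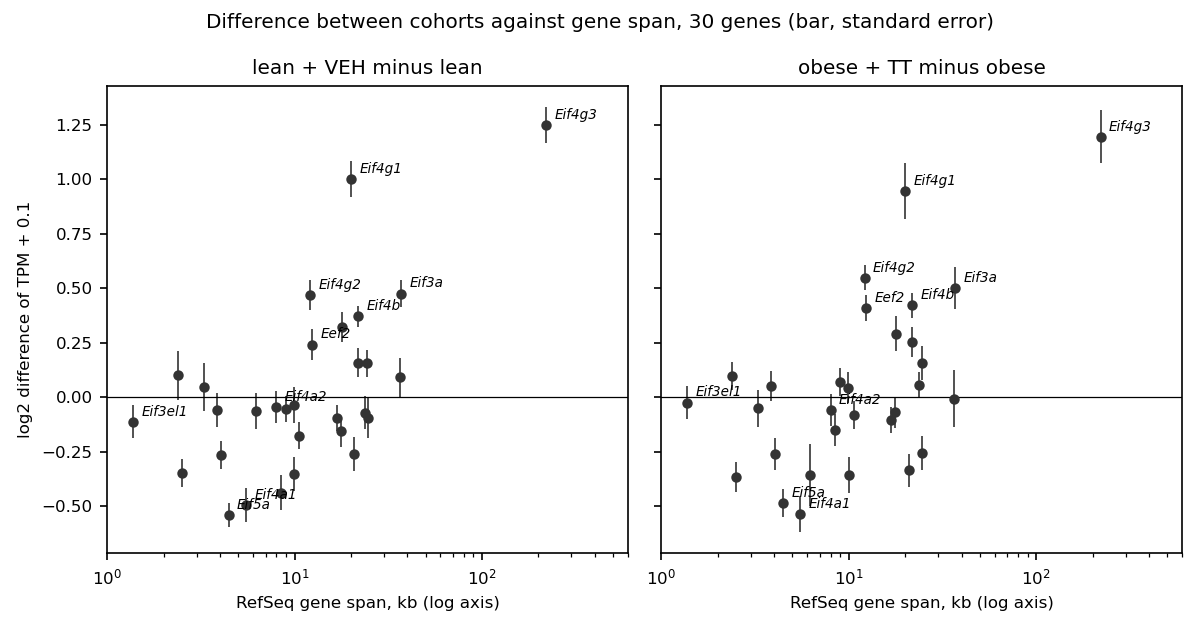
Log2 difference between cohorts for each of the 30 factors (with standard error) against the genomic span of the gene in RefSeq (kb, log axis), lean + VEH minus lean (left) and obese + TT minus obese (right). The longest gene, Eif4g3 at 221 kb (listed in 1 table only), has the largest difference, and genes of 1.38 to 10.6 kb lie at or below 0.10 in both panels.

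Other genes of the pathway were few in the tables used here. The cytosolic ribosomal proteins were the exception, with 76 identifiers. Between obese and lean rats 73 of the 76 lay above 0 (median 0.09) and none was called, with the smallest p for Rps21 (0.39 ± 0.09, adjusted p = 0.208) and Rps9 (0.17 ± 0.06, adjusted p = 0.333, limma). In the injected groups 40 of 76 were above 0 (median 0.02), and again none was called. The smallest p was that of Rps27a, at 0.95 (adjusted p = 0.51, limma). Between cohorts 1 was higher and 57 lower in the lean comparison (median -0.35) and 0 higher and 65 lower in the obese comparison (median -0.42), beside the 16.5% and 16.4% of all genes that were lower. After the median shift 0 were higher and 68 lower (median -0.55), and 0 higher and 74 lower (median -0.63), beside 27.5% and 27.0% of all genes. Rps19l2 fell by 1.3 and Rpl21 by 0.92 in the former, and Rpl21 by 0.98 and Rps16 by 0.88 in the latter. These families have many near-identical copies, so the split of reads between single genes is uncertain. Their sum was 51397 ± 3663 TPM in lean, 54607 ± 4430 in obese, 41716 ± 2715 in lean + VEH and 40804 ± 1078 TPM in obese + TT rats. The sum of the 30 factors as TPM overlapped between cohorts, at 6179 ± 352 TPM in obese, 5874 ± 357 in lean + VEH and 6344 ± 159 TPM in obese + TT rats, beside the 5978 TPM of the lean group. As a share of the TPM outside Ttr it did not overlap, at 0.906% ± 0.021 in lean against 0.826% ± 0.035 in lean + VEH rats and 0.946% ± 0.030 in obese against 0.873% ± 0.026 in obese + TT rats (SD).

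Of 37 other translation factors and partners, 5 carry a symbol (Etf1, Gspt1, Pabpc1, Paip2 and Ddx3x). None was called in the obesity contrasts. Ddx3x, a helicase of scanning, had the smallest p between obese and lean rats (-0.24, adjusted p = 0.33), followed by Pabpc1, the poly(A)-binding protein (0.13, adjusted p = 0.612, limma). Between the injected groups these were Pabpc1 (0.16, adjusted p = 0.668) and Paip2, which restrains it (0.04, adjusted p = 0.904, limma). Between cohorts, Gspt1 (release factor eRF3) and Pabpc1 were higher in the lean comparison (0.52 and 0.36), and Ddx3x, Pabpc1 and Gspt1 in the obese comparison (0.44, 0.39 and 0.38). For genes other than the Eif and Eef factors, the table that listed each one is not given here. Some may have been found only through the cohort where they are higher, so their differences between cohorts are a description. After the median shift the calls that stayed higher were that of Gspt1 in the lean and those of Ddx3x and Pabpc1 in the obese comparison (0.32, 0.22 and 0.17), and Etf1 and Paip2 were called lower in the lean comparison (-0.12 and -0.17). Atf4, the transcription factor whose translation rises when eIF2 is phosphorylated, and its target Psat1 were the 2 of 15 listed genes of that response with a symbol. Atf4 fell by 0.65 and 0.69 between cohorts (adjusted p = 4.39e-05 and 0.000609, limma) and lay at 0.09 and 0.05 in the obesity contrasts. Psat1 was at 0.30 between the injected groups (adjusted p = 0.375), 0.10 between obese and lean rats, 0.00 in the lean comparison and 0.20 in the obese comparison (adjusted p = 0.0244, limma). After the median shift it was called lower in the lean comparison (-0.21) and lay at -0.016, without a call, in the obese comparison. Rheb and Ddit4, which activate and restrain mTORC1, were the 2 of 20 regulators with a symbol. Under TPM their only call was that of Ddit4, which fell by 0.32 in the obese comparison (adjusted p = 0.00562, limma). After the median shift Ddit4 was called lower in the lean comparison as well (-0.37, adjusted p = 0.0308, limma). Tufm, the mitochondrial elongation factor and the 1 of 9 such factors with a symbol, was higher by 0.62 and 0.39 between cohorts (adjusted p = 9.87e-06 and 0.00106) and by 0.42 and 0.17 after the median shift. It lay at 0.26 between obese and lean rats (adjusted p = 0.274) and at 0.02 between the injected groups (adjusted p = 0.968, limma). Of 13 mRNAs commonly listed as carrying a terminal pyrimidine tract, 10 were measured. Among these, Eef1a1, Eef1b2, Eef1g, Eef2, Eif3f and Eif4b belong to the factors followed here, and Pabpc1 was named above. Their calls repeat results already given and are no separate evidence. The list gave 3 higher and 5 lower calls in the lean comparison and 3 higher and 2 lower in the obese comparison. The medians were -0.12 and -0.01, and no call was made in the obesity contrasts. Of all genes, 41.7% were higher in each comparison, and 16.5% and 16.4% lower. After the median shift the calls of the list were 1 higher and 7 lower (median -0.33) and 3 higher and 6 lower (median -0.23). With this shift 31.8% of all genes were higher and 27.5% lower in the lean comparison, and 30.4% and 27.0% in the obese one. Tpt1, a member of that list, fell by 0.39 and 0.43, and by 0.59 and 0.65 after the median shift.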

How the data were processed

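Total RNA from the choroid plexus of 20 rats was extracted, made into libraries with the NEBNext Ultra kit and sequenced (Illumina NovaSeq, paired ends) by a company. Per the labels, the authors named STAR 2.7.9a, RSEM 1.3.3, DESeq2 3.16 and the build Rnor_6.0; the program that made the TPM, the handling of reads that map to several genes and the use of strand are not given in the sources used here. The deposited files hold 1 TPM and 1 FPKM value per gene, without counts, so no depth or counting error can be given. Within a library FPKM was the deposited TPM times 1 factor. Each rat is 1 library; no 2 libraries of a group shared more than 1.92% of values.

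The study tested counts. Here log2(TPM + 0.1) was fitted with limma 3.58.1 (R 4.3.3; trend, not robust) over the genes that averaged 0.1 TPM or more among the rats compared, with Benjamini-Hochberg adjustment over all of them and calls at adjusted p under 0.05. All 30 factors passed the filter in every comparison. Fold changes of low genes are understated on this scale. Single values and ratios were tested by exact two-sided permutation tests (scipy 1.17.1). The fit was tested on simulated data. Comparisons with a common group (such as obese minus lean and lean + VEH minus lean) share its rats. Symbols came from the study's gene tables; their other columns, the authors' means and tests, were not used. Factors whose symbol is beyond the shortened copies were not analysed here. Starts and spans are from RefSeq GRCr8, by symbol.

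Levels by rat (lowest, median and highest for groups of 6) are given for the most abundant gene of each role, the factors with the largest difference (at most 6) or, without calls, the 3 smallest p values per comparison, and the sets of relatives. In the other lists of translation genes the 2 smallest p values between 2 groups are named, except for 1 gene that is not reported here; cell type markers are given by sums, counts or medians. The factors and lists were chosen with earlier results of these data known. Scaling, pseudocount, filter, moderation and single rats were varied. Leaving out lean + VEH rats 13 and 14 together was chosen after seeing the data.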

Additional observations from a re-analysis of the deposited data

Results flagged for a closer look

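Within a group, 12 of the 140 sets of values tested (30 factors and 5 library measures in 4 groups) had 1 rat farther from the others than Dixon's 95% criterion allows, where chance gives about 7. Lean rat 6 was low in 5 of them, in Eif2s2 (81.25 TPM, the others from 97.5), Eif3b (38.65 TPM), Eif3g (65.74 TPM), Eif4a3 (40.53 TPM) and the summed factors (5378.51 TPM, the others from 5954). Obese rat 10 was low in Eif5a (259.6 TPM, the others from 299). These 2 rats had the highest Ttr share of their groups, 39.0% and 39.3%, and its part was not tested. In lean + VEH rats, rat 13 was high in Eif2s2 (88.51 TPM), and rat 16 in Eif3b (52.42 TPM) and Eif3f (93.52 TPM). Among obese + TT rats, rat 19 was high in Eif3c (59.6 TPM), and rat 18 low in Eif3el1 (71.8 TPM) and Eif4g3 (71.36 TPM, still above every uninjected rat).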

How the results depend on the processing

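No factor was called in either obesity contrast or in their difference under any alternative run. Over all genes, the obese minus lean contrast gave 1 call with FPKM, 1 after the median shift, 3 with all 20 libraries in the fit and 0 to 1 with a rat left out. Obese + TT minus lean + VEH gave 6 with all 20 libraries, 4 without rats 13 and 14, and 0 to 25 with a rat left out, the most without rat 13. The difference of the 2 contrasts gave 1 call with a minimum mean of 1 TPM, 1 with robust moderation, 2 with FPKM, 5 without Ttr and the mitochondrial genome, 2 after the median shift, 11 after quantile normalization, 2 without rats 13 and 14, and 0 to 14 with a rat left out. Between lean cohorts, 15 called factors became 23 with FPKM, 23 without Ttr and the mitochondrial genome, 24 after the median shift and 23 after quantile normalization, and their median log2 difference went from -0.06 to -0.32, -0.17, -0.26 and -0.16. Between obese cohorts, 16 became 25, 19, 24 and 21 in the same order, and the median went from -0.01 to -0.29, -0.14, -0.23 and -0.12. These counts and medians include Eif4g3, Eif4a3, Eif2s1, Eif6 and Eif3b, each listed in 1 table only. For those genes they are no test between cohorts. With FPKM, Eef2 in the lean comparison (0.24) turned to -0.018 and Eif3l in the obese comparison (0.26) to -0.022. These scalings move the median of all genes, 0.24 and 0.25 with TPM, to 0.00 and -0.02 with FPKM. Higher and lower calls of all genes moved from 6394 and 2531 to 4453 and 4470 in the lean and from 6418 and 2523 to 4237 and 4503 in the obese comparison. No paired analysis was possible because each rat has its own number and no number is shared between groups. Without read counts, counting error could not be given.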
